A study of Homo sapiens with 18 samples.

Results

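The transcription factor NRF2, encoded by NFE2L2, and 9 genes around it were examined in human multiple myeloma cells in which ferroptosis, an iron-dependent cell death by lipid peroxidation, was provoked or held back. The 10 genes were NFE2L2, KEAP1, BACH1, BACH2, MAFF, MAFG, MAFK, OSGIN1, NQO1 and SQSTM1. They were taken by name, as rows of the deposited count tables carrying these symbols. These genes, and the lists of other genes used below, were chosen with earlier results of these data known. Counts of called genes therefore describe these sets only. The members are 10 of the 43735 rows of the raw count table, and all 10 were among the 14281 genes that passed the filter on low counts. SQSTM1 reached it through its treated libraries alone, so a difference from untreated cells is partly built in for this gene. It is described below without a test and left out of counts of called members, except in the closing account of changed settings.

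Gene expression was measured by RNA sequencing in MM1R and MM1S, a pair of related lines of which MM1R is resistant and MM1S sensitive to glucocorticoids. Each line was left untreated, exposed to 5 µM RSL3 for 3 h, or given 2 µM ferrostatin-1 (Fer-1) for 2 h before the same RSL3 exposure. RSL3 inhibits GPX4, the peroxidase that removes lipid hydroperoxides, and Fer-1 is a radical-trapping inhibitor of ferroptosis. Each of the 6 groups had 3 libraries, 18 in all, taken from passages 4, 6 and 7 of MM1R and 16, 22 and 23 of MM1S, and these are numbered as replicates 1, 2 and 3. Every group came from cultures of 1 of the 2 lines, so the p-values below measure the spread between passages of a line. Cells given Fer-1 alone were not analysed here.

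In resting cells KEAP1 holds NRF2 in the cytoplasm and hands it to a CUL3 ubiquitin ligase for degradation. Oxidants and electrophiles modify KEAP1, and NRF2 then accumulates and binds antioxidant response elements as a heterodimer with a small MAF protein (MAFF, MAFG or MAFK). BACH1 and BACH2 compete for the same elements with the same small MAF partners and repress them, NQO1 and OSGIN1 are induced through them, and SQSTM1 (p62) is an autophagy receptor that can sequester KEAP1. Much of this control acts on protein stability, which mRNA counts do not measure.

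Library totals ranged from 17635438 to 19368343 counts, and the TMM factors from 0.864 to 1.06. All 9 plasma cell markers on the list used were above 3 counts in every library, with a summed level of 4920 to 6780 CPM (counts scaled to a common library size). The summed level of 3 T cell markers was 3.42 to 11.8 CPM. Most of it was CD3E, at 63 to 211 counts (3.26 to 11.5 CPM), with CD2 at 3 to 11 counts and CD3D at 0 or 1. The summed levels were 0 to 0.601 CPM for 3 monocyte markers and 0.502 to 19.7 CPM for 3 fibroblast markers, of which COL1A2 was at 0 or 1 count. A pair of libraries stood apart. MM1S RSL3 replicate 1 had the lowest TMM factor and the highest level of the glucocorticoid receptor gene NR3C1 (392 CPM), and its COL1A1 level, 19.5 CPM against 0.746 and 1.23 CPM in the other MM1S RSL3 libraries, set the top of the fibroblast range. Replicate 2 labelled as MM1R Fer-1 + RSL3 had NR3C1 at 50.2 CPM, where the other MM1R libraries had 13.8 to 22.3 CPM. Over 18 genes that separate the lines, its median level was 45.7% of the way from the MM1R to the MM1S level, against -7.00 to -3.05% in the other MM1R libraries and 89.5 to 97.0% in MM1S libraries. Whether it holds RNA of both lines was not tested. Results of the 10 genes that change by over 1.5 times or lose a call without either library are given with and without it.

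Ordered by untreated mRNA level per kilobase of the canonical transcript, the genes ran over more than 3 orders of magnitude. That span rests on SQSTM1, whose level relative to other genes is uncertain, as described below. Without it the range in MM1R was 60.0 to 0.402 CPM per kb. KEAP1 was at the top with 60.0 ± 5.01 (SD, n = 3) CPM per kb in MM1R and 54.0 ± 1.97 in MM1S. NFE2L2 followed with 35.4 and 40.4 CPM per kb, then MAFG with 19.96 and 19.1, and then BACH1 with 9.65 and 11.5. MAFK (5.44 and 4.81), MAFF (5.10 and 6.49) and NQO1 (3.73 and 5.48) lay close together, and their order differed between the lines. OSGIN1 had 0.672 and 0.322 CPM per kb, BACH2 0.402 and 0.588, and SQSTM1 0.0322 and 0.0363. MAFG was thus the most abundant small MAF transcript per length in both untreated lines, and BACH1 the more abundant of the BACH repressors. After RSL3 the mean level of BACH1, 26.9 and 31.9 CPM per kb in MM1R and MM1S, was above that of MAFG, 20.9 and 29.9, differences within the spread of the libraries in both lines. Within libraries, BACH1 was the higher per length in every MM1R RSL3 library. In MM1S it was the higher in replicate 1 but not in replicates 2 and 3.

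**Figure D1:**
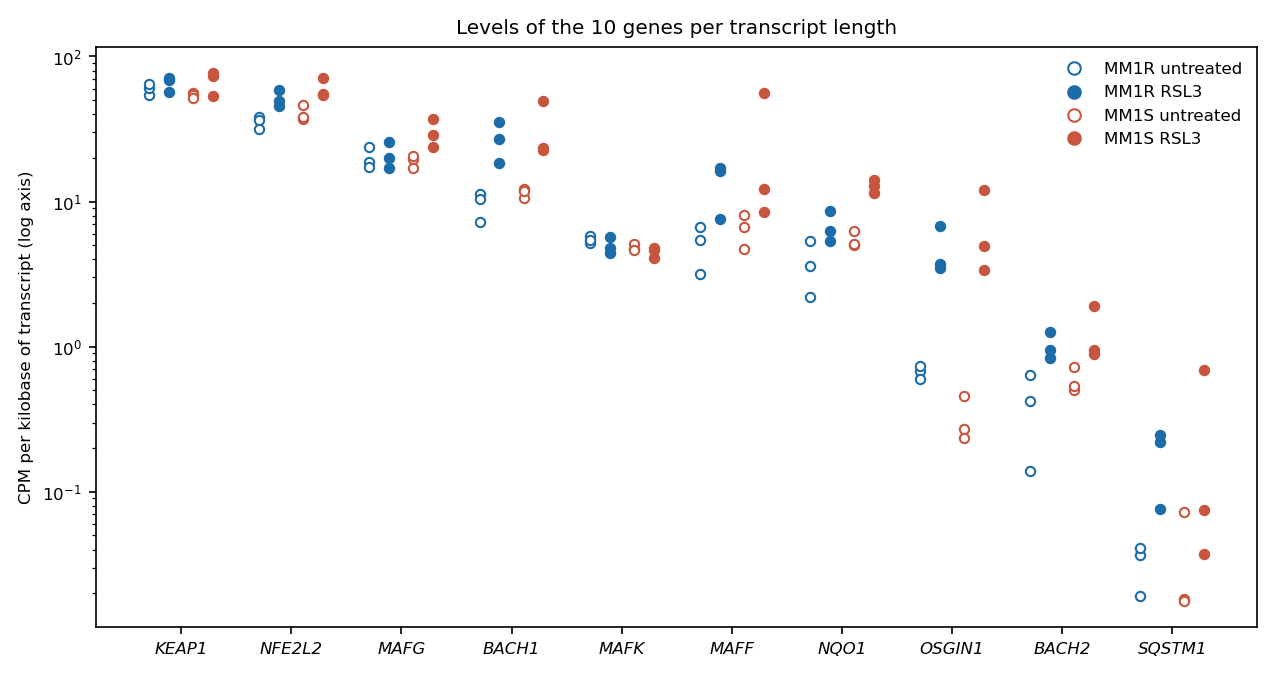
Level of each of the 10 genes in CPM per kilobase of its canonical transcript, on a log axis, for MM1R and MM1S. Each point is 1 of 3 libraries, open for untreated and filled for RSL3. KEAP1 is at the top and SQSTM1, whose level is uncertain, at the bottom.

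The order rests on the annotated canonical transcript, and the transcript used in these cells was not measured. In the hg19 annotation the genes lie at chr2:178083395-178257484 (NFE2L2, minus strand), chr19:10596801-10614234 (KEAP1, minus), chr21:30566392-31003071 (BACH1, plus), chr6:90636247-91006562 (BACH2, minus), chr22:38596774-38612514 (MAFF, plus), chr17:79876146-79885611 (MAFG, minus), chr7:1570338-1582679 (MAFK, plus), chr16:83964916-83999937 (OSGIN1, plus), chr16:69740899-69760571 (NQO1, minus) and chr5:179233398-179265078 (SQSTM1, plus). All but KEAP1 have exons overlapped by another annotated gene, among them MLYCD over OSGIN1 and SIRT7 over MAFG on the same strand, so how reads were shared there is uncertain.

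Promoter sequences are shown for the members in which a short form of the antioxidant response element or an AP-1-like site was found, because these are the letters that the CNC and small MAF proteins read. Windows from 250 bases before to 50 bases after each RefSeq start (GRCh38.p14) were searched on both strands for TGACNNNGC and for TGACTCA or TGAGTCA. A sequence can hold both kinds, since TGACTCA can form the start of TGACNNNGC. The first motif was in 4687 of 35116 promoters (13.3%) and the second in 1738 (4.95%). Of the 9 members with a promoter entry (16 windows), KEAP1 and MAFF had the first motif and BACH1 and OSGIN1 the second. GCLM, the modifier subunit of glutamate-cysteine ligase and a textbook NRF2 target, is shown for comparison. Capitals mark the match, and sequences read 5′ to 3′ on the strand of the gene.
GCLM, chr1:93909436-93909484, minus strand, 34 bases before the start: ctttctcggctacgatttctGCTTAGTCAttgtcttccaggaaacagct
KEAP1, chr19:10502797-10502845, minus strand, 54 bases before the start: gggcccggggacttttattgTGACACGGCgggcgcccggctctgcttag
KEAP1, chr19:10502774-10502822, minus strand, 31 bases before the start: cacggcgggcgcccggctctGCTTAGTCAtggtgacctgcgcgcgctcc
MAFF, chr22:38201852-38201900, plus strand, 122 bases before the start: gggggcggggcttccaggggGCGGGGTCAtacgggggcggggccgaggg
BACH1, chr21:29298854-29298900, plus strand, 48 bases before the start: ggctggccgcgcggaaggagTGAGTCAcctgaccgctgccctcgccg
OSGIN1, chr16:83953123-83953169, plus strand, 97 bases before the start: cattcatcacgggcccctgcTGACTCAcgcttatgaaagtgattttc

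The second KEAP1 match and the GCLM match carry the same 9 letters. A match is a description of these letters and not a mapped binding site, and a window without one says nothing of elements farther away. Of the 24 listed NRF2 targets with a promoter entry, 8 held the first motif.

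The first comparison asked how RSL3 changed these mRNAs. In a fit that did not pair passages, NFE2L2, BACH1 and OSGIN1 were called higher in both lines, and NQO1 and MAFG also in MM1S. BACH2 and MAFF were called in neither line and NQO1 not in MM1R, although each was above untreated in every passage. In edgeR's quasi-likelihood test, 3 of the 9 genes other than SQSTM1 passed a false discovery rate (FDR, Benjamini and Hochberg) of 0.05 in MM1R, where 3.36% of all tested genes did, and 5 of 9 in MM1S, where 3.67% did. None of the 9 was called lower. Averaged over both lines 6 of 9 passed, against 15.5% of all tested genes. The median log2 fold change of the 9 was 0.85 in MM1R and 1.08 in MM1S, against 0.000226 and 0.0022 over all tested genes. In these bulk samples, more cells that express a gene and more RNA per cell cannot be told apart.

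Other fits moved these counts and the share of all genes called together. With passage as a block 5 of the 9 passed in MM1R, BACH2 and NQO1 being added, against 13.1% of all tested genes. Without MM1S RSL3 replicate 1 the counts were 6 of 9 in MM1R, against 8.11% of all genes, and 3 of 9 in MM1S, against 1.07%. In MM1S 1 of 9 passed without MM1S untreated replicate 1, against 0.575%, and 3 of 9 without MM1S untreated replicate 2 or 3, against 1.34% and 1.17%. When the fit held the untreated and RSL3 cells of MM1S alone, 0 of 9 passed in edgeR's quasi-likelihood test and 7 had an unadjusted p under 0.05, with 3 of 13140 genes called in all (0.0228%), and the 5 members called above had FDR 0.124 (NQO1), 0.125 (OSGIN1), 0.165 (BACH1), 0.213 (NFE2L2) and 0.219 (MAFG). In the corresponding fit of MM1R NFE2L2 was lost (FDR 0.0619).

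Within each line, complete separation of libraries was read without a test. Every RSL3 library was above every untreated library in MM1R for NFE2L2, BACH1, BACH2, MAFF and OSGIN1, 5 of the 9, as for 13.5% of all tested genes. In MM1S this held for the same 5 genes and for MAFG and NQO1, 7 of the 9, as for 12.6%. Paired by passage, RSL3 was above untreated in 6 of 6 passages for NFE2L2, BACH1, BACH2, MAFF, OSGIN1 and NQO1, a pattern seen in 13.8% of all tested genes.

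By a stricter call, FDR below 0.05 together with a log2 fold change over 1 in size, BACH1 and OSGIN1 passed in MM1R, where 1.2% of all tested genes did. BACH1, OSGIN1 and NQO1 passed in MM1S, where 1.61% did.

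**Figure D2:**
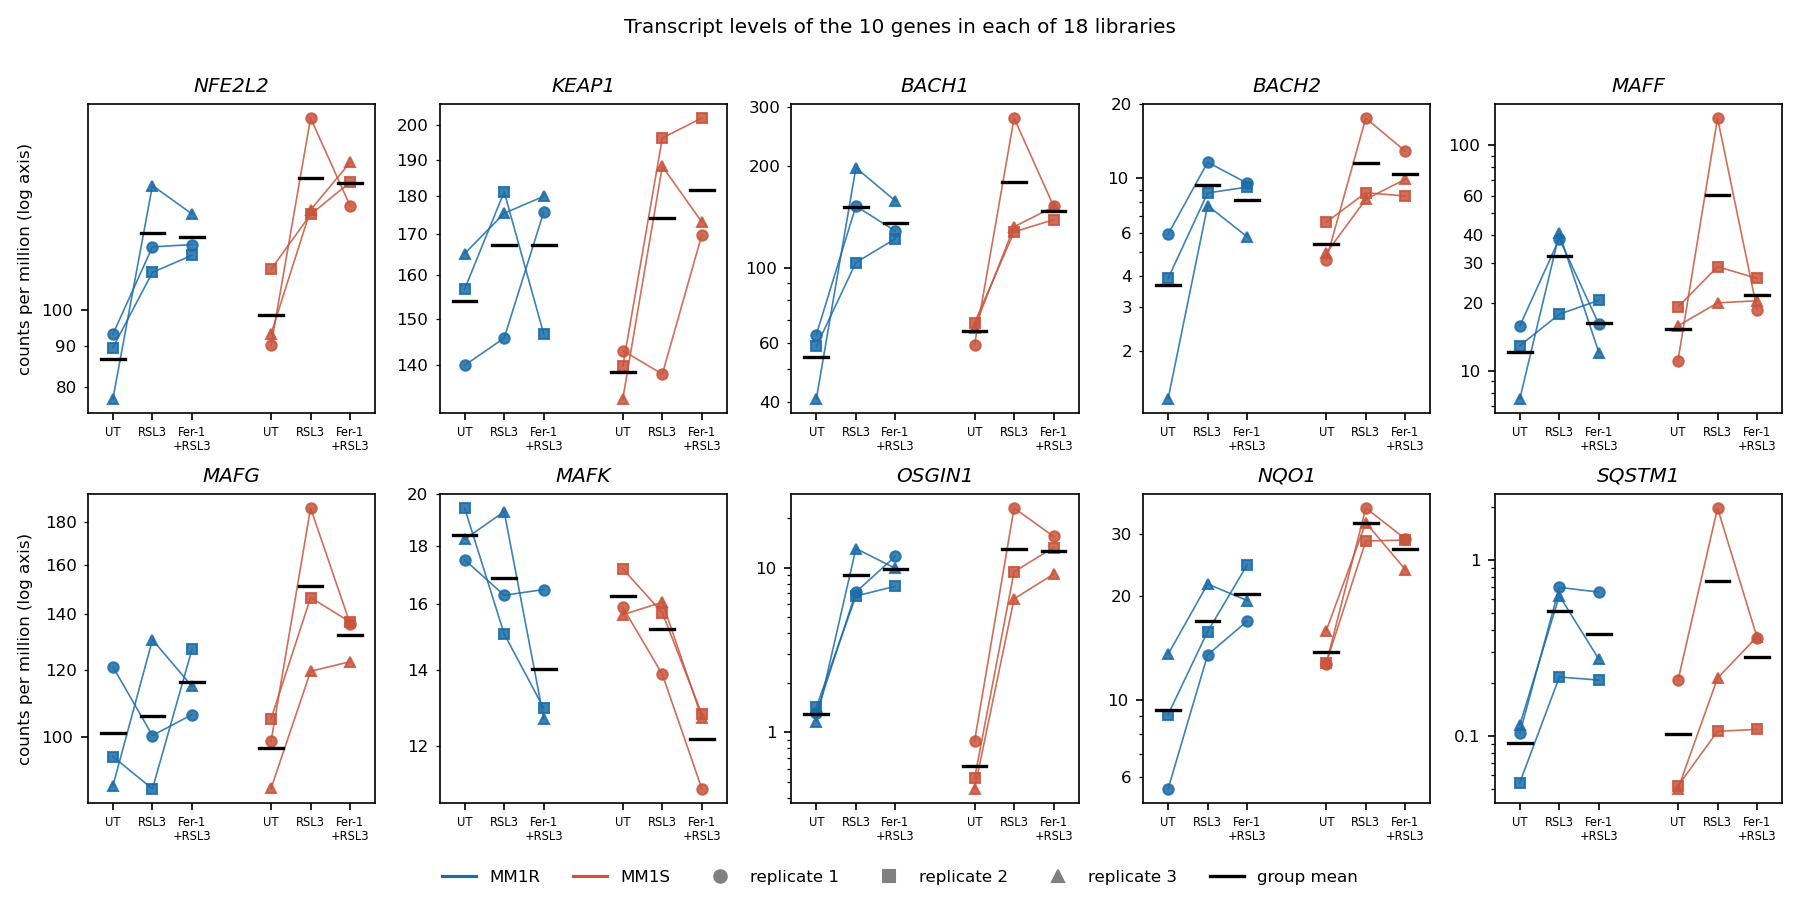
Level of the 10 genes in CPM, on a log axis, in each library of the 6 groups. Lines join libraries of 1 passage and black bars are group means. OSGIN1 and BACH1 are higher in every RSL3 and Fer-1 + RSL3 library than in any untreated one of the same line, and MAFF is at its highest, 132 CPM, in MM1S RSL3 replicate 1.

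NFE2L2 encodes NRF2 itself. Its level was 93.2, 89.7 and 77.2 CPM in the 3 untreated MM1R libraries and 120.2, 111.6 and 143.7 CPM with RSL3, so the groups did not overlap. In MM1S it was 90.3, 112.6 and 93.3 CPM untreated and 174.9, 132.1 and 133.9 CPM with RSL3, again without overlap. The rise was modest and alike in size: the log2 fold change was 0.53 ± 0.13 (SE) in MM1R (FDR 0.0370, edgeR's quasi-likelihood test) and 0.57 ± 0.13 in MM1S (FDR 0.0243). Both calls rest on few libraries. The MM1R call was lost without any 1 of MM1R untreated 1, 2 or 3, MM1R RSL3 1 or 3, MM1S untreated 3, or MM1S Fer-1 + RSL3 2 or 3, with FDR from 0.0512 to 0.142. The MM1S call was lost without MM1S untreated 1 or 3 or MM1S RSL3 1 (FDR 0.0971 to 0.131). Averaged over both lines, the log2 fold change of 0.55 had FDR 0.00102.

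KEAP1, the adaptor that presents NRF2 to its ligase, did not pass in either line. Its level was 139.9, 156.7 and 165.2 CPM in untreated MM1R and 145.7, 181.1 and 175.4 CPM with RSL3, and 143.0, 139.7 and 133.1 CPM in untreated MM1S against 138.1, 196.2 and 188.1 CPM with RSL3. The groups overlapped in both lines, through the replicate 1 library of the RSL3 group in each. The log2 fold change was 0.12 in MM1R (95% interval -0.16 to 0.40, FDR 0.705) and 0.33 in MM1S (0.05 to 0.61, FDR 0.184, edgeR's quasi-likelihood test). Averaged over both lines it was 0.23 (FDR 0.118), and 0.30 without MM1S RSL3 replicate 1, when it passed (FDR 0.0257).

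BACH1, the haem-regulated repressor of antioxidant response elements, rose by more than NFE2L2 in log2 fold change. Its level was 63.3, 58.4 and 40.8 CPM in untreated MM1R and 152.3, 103.6 and 197.9 CPM with RSL3. In MM1S it was 59.1, 68.6 and 66.5 CPM untreated, and 277.8, 127.7 and 132.2 CPM with RSL3. No RSL3 library overlapped the untreated ones, although the MM1S value of 277.8 CPM in replicate 1 was more than double its companions. The log2 fold change was 1.48 ± 0.27 (SE) in MM1R (FDR 0.00862) and 1.47 ± 0.27 in MM1S (FDR 0.00851, edgeR's quasi-likelihood test). Without MM1S RSL3 replicate 1 the MM1S value was 1.01 (FDR 0.0267), and without MM1S untreated replicate 1 that call was lost (FDR 0.0539). The MM1R call held whichever library was left out.

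BACH2, the paralogue that represses plasma cell differentiation in B cells, was at low levels throughout. It had 5.92, 3.92 and 1.27 CPM in untreated MM1R and 11.6, 8.72 and 7.75 CPM with RSL3. In MM1S it had 4.66, 6.64 and 4.97 CPM untreated and 17.6, 8.74 and 8.22 CPM with RSL3. The groups did not overlap in either line, yet neither fold change passed: it was 1.33 ± 0.40 (SE) in MM1R (FDR 0.0810) and 1.08 ± 0.39 in MM1S (FDR 0.141). The average over both lines, 1.204, passed (FDR 0.00923, edgeR's quasi-likelihood test). With passage as a block BACH2 passed in each line, at 1.43 (FDR 0.00995) and 1.01 (FDR 0.0371). It also passed in MM1R without MM1S RSL3 replicate 1 (FDR 0.0304), and its MM1S value was then 0.65 (FDR 0.546).

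The 3 small MAF genes, which encode partner subunits without an activation domain of their own, did not move alike. MAFF, the stress-inducible member, was at 15.9, 13.0 and 7.53 CPM in untreated MM1R and 38.6, 17.9 and 40.7 CPM with RSL3. In MM1S it was at 11.1, 19.2 and 15.9 CPM untreated, and at 132.3, 29.0 and 20.1 CPM with RSL3. The groups did not overlap, but the RSL3 libraries were spread widely and replicate 1 of MM1S carried most of the rise there. The log2 fold change was 1.42 ± 0.53 (SE) in MM1R (FDR 0.159) and 1.97 ± 0.53 in MM1S (FDR 0.0504), and the average of 1.69 passed (FDR 0.00671, edgeR's quasi-likelihood test). Without MM1S RSL3 replicate 1 the MM1S value was 0.68 (FDR 0.444), the average was 1.05 (FDR 0.00693), and the MM1R value passed (FDR 0.0105). The MM1S value passed without MM1R RSL3 replicate 2 or MM1S RSL3 replicate 2 or 3 (FDR 0.00900 to 0.0492).

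MAFG had 121.1, 94.7 and 87.4 CPM in untreated MM1R and 100.3, 86.7 and 130.4 CPM with RSL3, overlapping groups with a log2 fold change of 0.07 (95% interval -0.29 to 0.43, FDR 0.896). In MM1S it had 98.7, 105.0 and 86.8 CPM untreated and 187.1, 146.4 and 119.6 CPM with RSL3, with no overlap and a log2 fold change of 0.64 ± 0.17 (SE, FDR 0.0460, edgeR's quasi-likelihood test). That call was fragile, being lost in 13 of 18 fits that each left out 1 library (FDR 0.0541 to 0.214), and it held only without MM1R untreated 1 or 3, MM1R RSL3 2 or 3, or MM1S RSL3 3. The average over both lines, 0.35, had FDR 0.0561, and 0.34 with FDR 0.0308 under the passage block. It also passed without MM1R untreated 1, MM1R RSL3 2 or MM1S RSL3 3 (FDR 0.0207 to 0.0339).

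MAFK had 17.5, 19.5 and 18.3 CPM in untreated MM1R and 16.3, 15.1 and 19.3 CPM with RSL3. In MM1S it had 15.9, 17.2 and 15.7 CPM untreated and 13.9, 15.7 and 16.1 CPM with RSL3. The groups overlapped in both lines, and the log2 fold changes were -0.12 (95% interval -0.40 to 0.15, FDR 0.690) and -0.09 (FDR 0.752, edgeR's quasi-likelihood test). MAFK was the 1 member of the 10 with a negative estimate.

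OSGIN1, an oxidative stress response gene induced through NRF2, had the largest fold change of the 10 in each line. It started from 1.30, 1.42 and 1.16 CPM in untreated MM1R (25, 26 and 20 counts) and reached 7.10, 6.72 and 13.0 CPM with RSL3. In MM1S it went from 0.881, 0.522 and 0.452 CPM (17, 10 and 9 counts) to 23, 9.43 and 6.46 CPM. The groups were far apart in both lines, with the lowest RSL3 library several times above the highest untreated one. The log2 fold change was 2.78 ± 0.43 (SE) in MM1R (FDR 0.00467) and 4.37 ± 0.47 in MM1S (FDR 0.000288, edgeR's quasi-likelihood test), and both calls held in all 18 fits that each left out 1 library. Without MM1S RSL3 replicate 1 the MM1S value was 3.68 (FDR 8.87e-05).

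NQO1, the quinone reductase used as a standard NRF2 readout, was at 5.56, 9.10 and 13.6 CPM in untreated MM1R and 13.5, 15.8 and 21.6 CPM with RSL3. The lowest RSL3 library lay just below the highest untreated one. In MM1S it was at 12.7, 12.8 and 15.9 CPM untreated and 35.7, 28.7 and 32.4 CPM with RSL3, a clear separation. The log2 fold change was 0.85 ± 0.25 (SE) in MM1R (FDR 0.0692) and 1.22 ± 0.24 in MM1S (FDR 0.0129, edgeR's quasi-likelihood test). With passage as a block the MM1R value of 0.89 passed (FDR 0.0104). It passed too without MM1R untreated replicate 3, at 1.21 (FDR 0.0287), or without MM1S RSL3 replicate 1 (FDR 0.0404). The MM1S call was lost without MM1S untreated replicate 1 (FDR 0.0779) or 2 (FDR 0.0541).

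SQSTM1 was close to the limit of detection in its own row, with 1 to 30 counts per library and 113 in all. The counts were 2, 1 and 2 in untreated MM1R, 13, 4 and 11 with RSL3, 4, 1 and 1 in untreated MM1S, and 30, 2 and 4 with RSL3. The ratio of summed counts, corrected for library size, was 5.63 in MM1R and 6.64 in MM1S. These ratios pool the libraries of a group and carry no measure of the spread between passages. The MM1S ratio rests mostly on the 30 counts of RSL3 replicate 1. Without that library the fitted log2 fold change in MM1S was 0.61, against 2.75 with it. The average over both lines was then 1.51, against 2.58. Untreated libraries had 1 to 4 counts, and the 4 libraries with 10 or more were all treated, which is how the gene entered the tested set. The ratios are therefore a description.

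The count table also holds a second row for SQSTM1, marked with a numbered suffix, with 0 to 20 counts per library and 127 in all. Its counts in MM1R were 4, 2 and 0 untreated and 11, 7 and 15 with RSL3. In MM1S they were 0, 5 and 4 untreated and 20, 6 and 6 with RSL3, again without a test. In the whole table, 1538 of 2363 genes with such a copy row (65.1%) had a plain row at 0 in every library, against 28.1% of genes with a single row. The level of SQSTM1 relative to other genes is therefore uncertain, and the part of these copy rows in it was not tested. BACH2 had a copy row as well, at 0 in every library.

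**Figure D3:**
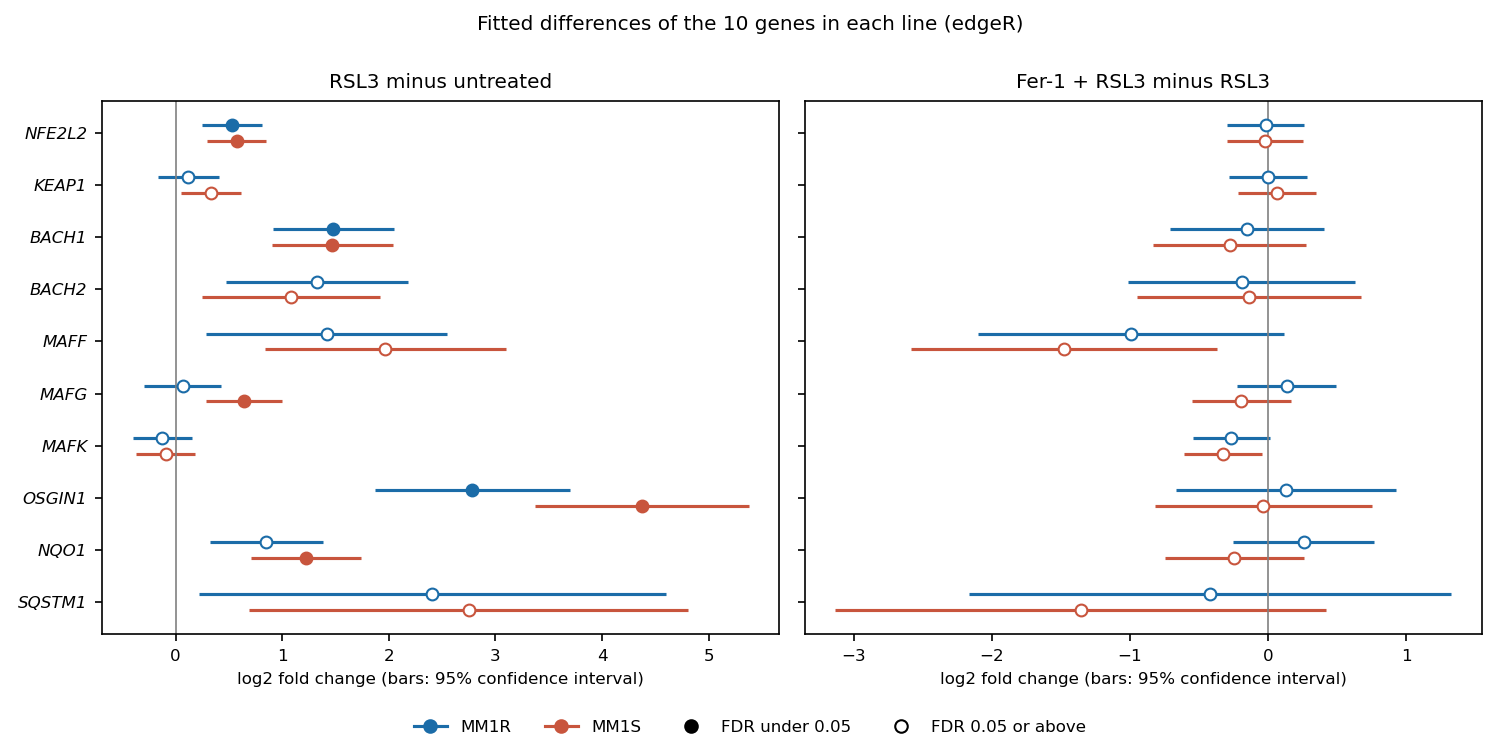
Log2 fold change with 95% interval for the 10 genes, RSL3 minus untreated and Fer-1 + RSL3 minus RSL3, in MM1R and MM1S. Filled points have FDR below 0.05. For SQSTM1 the RSL3 points and intervals are a description only, a difference from untreated being partly built in by the filter. OSGIN1 is farthest from 0 after RSL3, at 2.78 and 4.37, and no point is filled in the Fer-1 comparison.

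The second comparison asked whether Fer-1 given before RSL3 altered the response. No member passed in MM1R, in MM1S or averaged over both lines, where 0%, 0% and 0.119% of all tested genes did in edgeR's quasi-likelihood test. At an unadjusted p under 0.05, 0 members were counted in MM1R, and 2 each in MM1S and on average, MAFF and MAFK. DESeq2 and limma also called 0 in each. The median log2 difference of the 10 was -0.09 in MM1R and -0.22 in MM1S, against 0.00772 and -0.00503 over all genes. The fold changes of both comparisons share the RSL3 libraries, so they are given side by side only.

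MAFF had the largest difference of the 10 in each line, and it did not pass. It was at 16.1, 20.6 and 12.1 CPM in MM1R and 18.7, 25.8 and 20.5 CPM in MM1S with Fer-1 and RSL3. These values overlapped the RSL3 libraries in both lines, where MAFF reached 40.7 and 132.3 CPM. The log2 difference was -0.99 in MM1R (95% interval -2.10 to 0.12, FDR 0.830), -1.48 in MM1S (-2.58 to -0.37, FDR 0.783) and -1.24 on average (FDR 0.193, edgeR's quasi-likelihood test). Without MM1S RSL3 replicate 1 the MM1S difference was -0.18, and without replicate 2 labelled MM1R Fer-1 + RSL3 the MM1R difference was -1.198. The average was -0.59 without MM1S RSL3 replicate 1 (FDR 0.405), and it passed without MM1S RSL3 replicate 3 (FDR 0.0444).

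MAFK was at 16.5, 13.0 and 12.7 CPM in MM1R and 10.99, 12.8 and 12.7 CPM in MM1S with Fer-1 and RSL3. In MM1S every one of these lay below every RSL3 library, as for 4.17% of all tested genes, and MAFK was the only member of which that held. In MM1R no member separated in this direction, against 6.44% of genes, and MAFF alone did once replicate 2 of Fer-1 + RSL3 was left out, against 9.64%. The MAFK difference was -0.27 in MM1R (FDR 0.814), -0.32 in MM1S (FDR 0.833) and -0.30 on average (FDR 0.207, edgeR's quasi-likelihood test).

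The members called higher with RSL3 in both lines had small differences here. OSGIN1 was at 11.7, 7.70 and 9.89 CPM in MM1R and 15.5, 13.2 and 9.12 CPM in MM1S, a log2 difference from RSL3 of 0.13 (95% interval -0.67 to 0.92) and -0.03. BACH1 was at 128.4, 121.9 and 157.7 CPM in MM1R and 152.2, 138.8 and 151.6 CPM in MM1S, a difference of -0.15 and -0.28. For NFE2L2 the difference was -0.02 in each line. The intervals are wide, so these values do not show equality. Without MM1S RSL3 replicate 1 the MM1S differences became 0.66 for OSGIN1, 0.18 for BACH1, 0.12 for NFE2L2, 0.30 for BACH2, -0.08 for KEAP1 and 0.79 for SQSTM1, a change of sign for all 6, none of them called.

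Set against untreated cells, NFE2L2, BACH1, OSGIN1 and NQO1 were higher with Fer-1 and RSL3 in both lines. These were 4 of the 9 members other than SQSTM1 in MM1R, where 9.22% of all tested genes passed, and 4 of 9 in MM1S, where 4.61% did. The log2 fold changes in MM1R and MM1S were 0.51 (FDR 0.0241) and 0.55 (FDR 0.0234) for NFE2L2, and 1.33 (FDR 0.00665) and 1.19 (FDR 0.0170) for BACH1. They were 2.91 (FDR 0.00110) and 4.34 (FDR 0.000236) for OSGIN1 and 1.11 (FDR 0.0109) and 0.98 (FDR 0.0289) for NQO1, in edgeR's quasi-likelihood test. NQO1 was lost in MM1R without replicate 2 labelled MM1R Fer-1 + RSL3 (0.95, FDR 0.0564), and the other 3 MM1R calls held without it.

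Several of these calls depended on other single libraries, and the MM1S count of 4 was 1 without MM1S untreated 1 or 3 and 2 without MM1S untreated 2 or MM1S Fer-1 + RSL3 1 or 2, in fits that called 2.01 to 2.53% of all genes. NFE2L2 in MM1R was lost without MM1R Fer-1 + RSL3 1 or 3 or MM1R untreated 2 or 3 (FDR 0.0518 to 0.103), and in MM1S without MM1S untreated 1 or 3 or MM1S Fer-1 + RSL3 2 or 3 (FDR 0.0710 to 0.112). BACH1 in MM1S was lost without any untreated library or without MM1S Fer-1 + RSL3 1 (FDR 0.0531 to 0.0784). NQO1 in MM1S was lost without any untreated library or without MM1S Fer-1 + RSL3 1 or 2 (FDR 0.0559 to 0.113). OSGIN1 kept its call in MM1R and in MM1S in all 18 fits that each left out 1 library.

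MAFF, which had averaged above untreated with RSL3 alone, had log2 fold changes of 0.42 (FDR 0.670) and 0.49 (FDR 0.699) against untreated when Fer-1 was present. MAFK lay below untreated in every passage, with within-passage log2 differences from -0.58 to -0.09, a pattern seen in 16% of all tested genes. Its fold changes of -0.39 (FDR 0.0748) and -0.42 (FDR 0.0827) did not pass, and did with passage as a block (FDR 0.0365 and 0.0395). The block also added BACH2 in MM1R (1.22, FDR 0.0126) and, in MM1S, BACH2 (0.91, FDR 0.0492) and KEAP1 (0.38, FDR 0.0417), for 7 of 9 called in MM1S, against 14.7% of all genes (edgeR's quasi-likelihood test). KEAP1 in MM1S passed too without MM1S RSL3 replicate 1 (FDR 0.0368), MAFK in MM1R without MM1R Fer-1 + RSL3 replicate 1 (FDR 0.0385), and BACH2 in MM1R without MM1R untreated replicate 1 (1.64, FDR 0.0366) or MM1S RSL3 replicate 1 (FDR 0.0470).

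**Figure D4:**
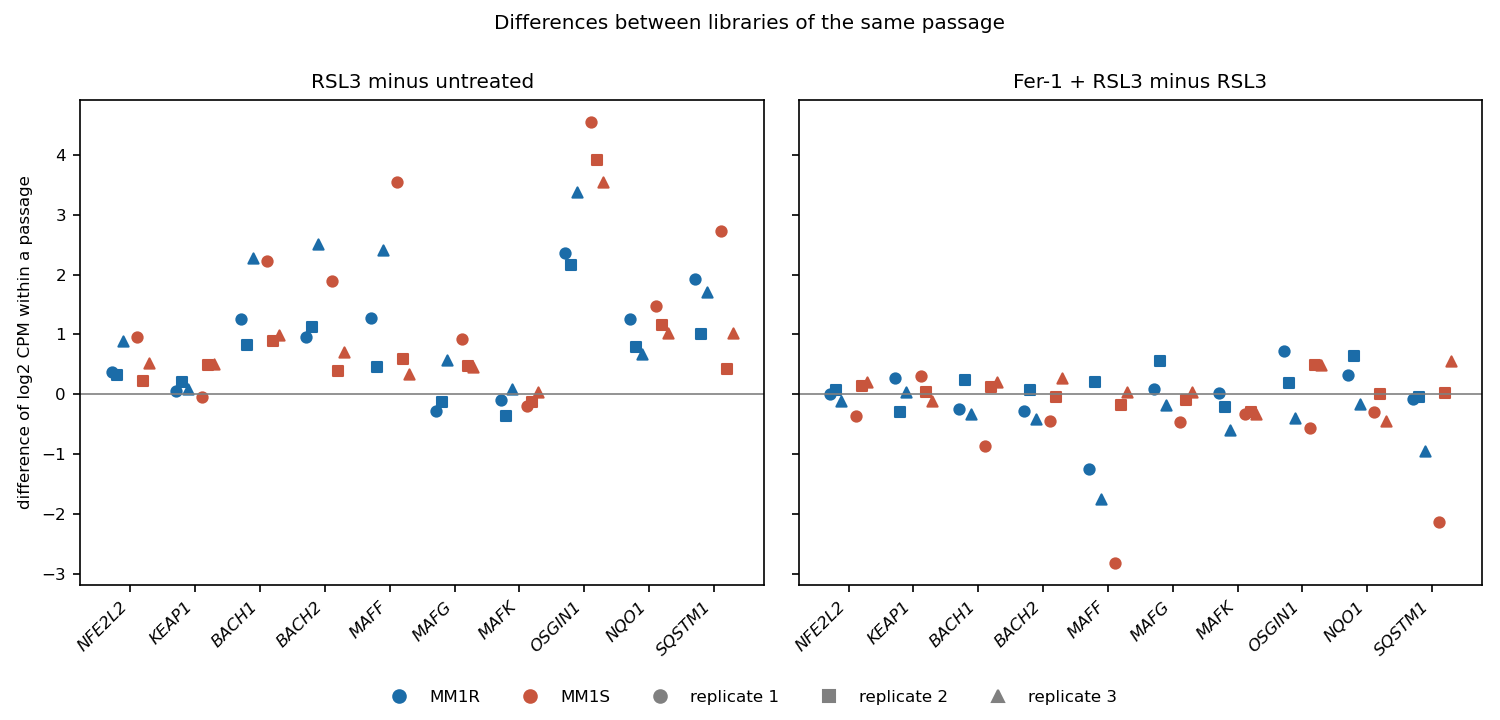
Within-passage differences in log2 CPM for the 10 genes, RSL3 minus untreated and Fer-1 + RSL3 minus RSL3. Each point is 1 of 6 passages, by line. After RSL3, NFE2L2, BACH1, BACH2, MAFF, OSGIN1 and NQO1 are above 0 in all 6 passages, as are 13.8% of all tested genes. OSGIN1 is above by 2.16 to 4.55. SQSTM1 is above 0 in all 6 too, a difference partly built in by the filter. In the Fer-1 comparison MAFF spans -2.81 to 0.20.

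The lines were then compared. In untreated cells 0 of the 10 members passed between MM1R and MM1S, against 10.5% of all tested genes, with 1 at an unadjusted p under 0.05 and 0 by DESeq2 or limma. That member was NQO1, lower in MM1R by its estimate (log2 difference -0.56, 95% interval -1.08 to -0.03, FDR 0.175, edgeR's quasi-likelihood test), and it passed without MM1R untreated replicate 3 (-0.92, FDR 0.0369). OSGIN1 had a difference of 1.06 (-0.04 to 2.15, FDR 0.218), at 9 to 26 counts per library. The remaining 8 lay between -0.54 and 0.18.

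Whether the RSL3 response differed between the lines was tested as an interaction. No member passed, as no gene did among all tested (0%), with 2 members at an unadjusted p under 0.05 and 0 by DESeq2 or limma. Those 2 were OSGIN1, with a response lower in MM1R by 1.59 on the log2 scale (interaction -1.59, 95% interval -2.94 to -0.23), and MAFG (interaction -0.58), both with an FDR of 1 in edgeR's quasi-likelihood test. For the Fer-1 comparison the interaction was called for 0 members and 0% of all genes, with 0 members at an unadjusted p under 0.05 and 0 by DESeq2 or limma. MAFG and NQO1, called in MM1S alone, are therefore not shown to differ between the lines.

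NRF2 targets outside the 10 were read from a list of 35 genes, of which 29 were tested. With RSL3, 8 rose in MM1R and 9 in MM1S, where 3.36% and 3.67% of all tested genes were called, 12 rose when averaged over both lines (15.5% of all genes), and 0 fell in any of the 3. The median log2 fold change of the 29 was 0.16 in MM1R and 0.30 in MM1S, and 21 and 20 of them did not pass. Blocked by passage, 14 passed in MM1S, against 13.3% of all genes, and 2 did when the fit held the untreated and RSL3 cells of MM1S alone, against 0.0228%. In MM1R 5 passed without MM1R untreated replicate 1 or 2, against 0.774% and 1.08%. HMOX1, haem oxygenase and a target that BACH1 represses, led them. It was at 13.5, 17.8 and 25.4 CPM in untreated MM1R and 237, 243 and 1404 CPM with RSL3, and at 10.6, 9.09 and 13.2 CPM in untreated MM1S and 2298, 310 and 435 CPM with RSL3. The groups were far apart in both lines, and the log2 fold change was 5.05 ± 0.80 (SE) in MM1R (FDR 0.00467) and 6.53 ± 0.86 in MM1S (FDR 0.00177, edgeR's quasi-likelihood test). HMOX1 was called in all 18 fits that each left out 1 library, at 3.67 in MM1R without MM1R RSL3 replicate 3 (FDR 0.0139) and 5.09 in MM1S without MM1S RSL3 replicate 1 (FDR 0.00107).

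GCLM was at 21.7, 20.7 and 22.8 CPM in untreated MM1R and 39.0, 49.7 and 46.1 CPM with RSL3, and at 22.3, 25.6 and 26.7 CPM in untreated MM1S and 64.4, 67.7 and 57.9 CPM with RSL3. Its libraries were tightly grouped, with a log2 fold change of 1.05 ± 0.13 (FDR 0.00119) and 1.35 ± 0.13 (FDR 4.97e-05). GCLC, the catalytic subunit of the same ligase, changed by 0.75 (FDR 0.00211) and 0.71 (FDR 0.00200), and SLC7A11, the cystine importer, by 2.52 (FDR 0.00309) and 2.01 (FDR 0.00612). SRXN1, which repairs oxidised peroxiredoxins, changed by 1.23 (FDR 0.00498) and 1.64 (FDR 0.000958), in edgeR's quasi-likelihood test.

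TXNRD1, thioredoxin reductase, changed by 0.70 (FDR 0.0290) and 0.88 (FDR 0.0103), and the carbonyl reductase CBR3 by 1.21 (FDR 0.0247) and 1.22 (FDR 0.0127), in MM1R and MM1S. AKR1C3 rose in MM1S by 1.09 (FDR 0.0220) and had 0.70 in MM1R (FDR 0.120, edgeR's quasi-likelihood test, and 0.00853 with passage as a block). TXNRD1 in MM1R was lost without any untreated library or without MM1R RSL3 2 or 3 (FDR 0.0596 to 0.118), and CBR3 in MM1R without MM1R untreated 1 or 2 or MM1R RSL3 1 (FDR 0.0959 to 0.134). In MM1S both were lost without MM1S untreated replicate 1 (FDR 0.0726 and 0.0745), and AKR1C3 without MM1S untreated 2 or 3 or MM1S RSL3 1 (FDR 0.0809 to 0.105). FTL (1.31), PIR (0.89), FTH1 (0.54) and ME1 (0.32), named after their values were seen, passed when both lines were averaged. The 8 targets called in MM1R and the 9 in MM1S include calls among these genes too. PIR was at low counts, 12 to 48 per library. RSL3 and untreated libraries overlapped for FTH1 in both lines and for ME1 in MM1S, and did not for FTL and PIR. In MM1S RSL3 replicate 1 FTH1 was at 149.4 CPM, against 77.2 and 62.3 CPM in replicates 2 and 3. FTL was at 7095 CPM there, against 3590 and 3333 CPM.

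With Fer-1 and RSL3 against RSL3, 0 of the 29 targets were called in either line or on average by edgeR's quasi-likelihood test, DESeq2 or limma, with 1, 0 and 2 at an unadjusted p under 0.05. HMOX1 was at 748, 685 and 1463 CPM in MM1R and 1220, 1142 and 975.3 CPM in MM1S. GCLM was at 48.1, 60.9 and 65.7 CPM in MM1R and 57.0, 61.6 and 59.5 CPM in MM1S. Against untreated cells, 8 of 29 were called higher in MM1R, where 9.22% of all tested genes were called, and 9 of 29 in MM1S, where 4.61% were, and 0 lower. Blocked by passage, 13 were called in MM1R, against 22.2% of all genes.

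**Figure D5:**
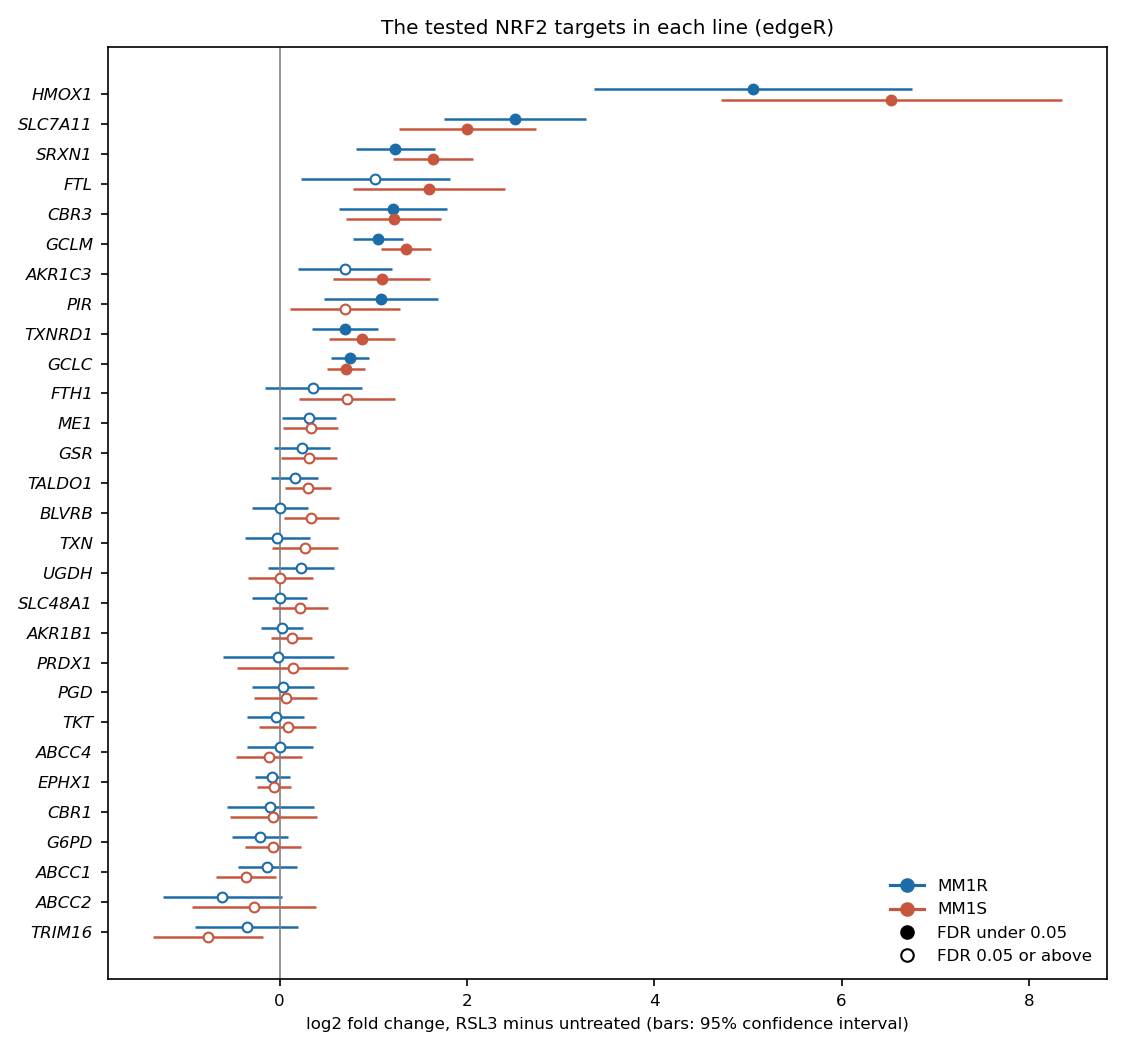
Log2 fold change with 95% interval, RSL3 minus untreated, for the 29 tested NRF2 targets in MM1R and MM1S. HMOX1 is farthest to the right, at 5.05 and 6.53, and most of the other targets lie near 0.

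Relatives of NRF2 moved in both directions. Among genes for CNC factors and large MAF factors, NFE2L1 rose and NFE2L3 and MAF fell when both lines were averaged. NFE2L1, which drives proteasome genes, rose by 0.64 in MM1R (FDR 0.0290) and 0.72 in MM1S (FDR 0.0177), and NFE2L3 changed by -0.58 (FDR 0.0327) and -0.80 (FDR 0.00654). The large MAF factor MAF, an oncogene in myeloma, had -0.43 (FDR 0.136) and -0.68 (FDR 0.0224, edgeR's quasi-likelihood test).

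NFE2L3 in MM1S kept its call in all 18 fits that each left out 1 library (FDR 0.00539 to 0.0461), and the other calls within a line did not. NFE2L1 and NFE2L3 in MM1R were each lost without any untreated MM1R library or without MM1R RSL3 1 or 3 (FDR 0.0514 to 0.150). In MM1S, NFE2L1 was lost without MM1S untreated 1 or 3 or MM1S RSL3 1 (FDR 0.0566 to 0.101), and MAF without the same 3 libraries (FDR 0.0520 to 0.132). The averaged values were 0.68 for NFE2L1 (FDR 0.000639), -0.69 for NFE2L3 (FDR 0.000325) and -0.56 for MAF (FDR 0.00277, edgeR's quasi-likelihood test). With passage as a block MAF (-0.41, FDR 0.0491) passed in MM1R too.

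Genes for the turnover of NRF2 were read next. Of 12 genes for the KEAP1-CUL3 and other ligase components 11 were tested and 0 passed in either line by edgeR's quasi-likelihood test, near the 3.36% and 3.67% of all genes, with 1 in MM1R and 0 in MM1S at an unadjusted p under 0.05, 1 and 0 by DESeq2 and 0 in both by limma. On average GSK3A alone of the 11 passed, at -0.24 (FDR 0.0433), where 15.5% of all tested genes did. Of 16 KEAP1-binding proteins and kinases of NRF2 or SQSTM1 15 were tested. EIF2AK3, the kinase PERK, had 1.45 in MM1R (FDR 0.0457) and 1.67 in MM1S (FDR 0.0239), and the scaffold AMER1 had -0.75 (FDR 0.0816) and -0.98 (FDR 0.0255, edgeR's quasi-likelihood test). Averaged over both lines, TBK1 (0.28, FDR 0.0156) and PRKCD (-0.33, FDR 0.0329) passed as well. That made 2 higher and 2 lower of the 15, against the same 15.5% of all tested genes. Among 8 coactivators and corepressors SMARCA4 passed on average (-0.29, FDR 0.0454). Of 6 tested autophagy receptors 0 were called in either line or on average by edgeR's quasi-likelihood test. An unadjusted p under 0.05 was seen for 1, 1 and 4 of them, with 1 called on average by DESeq2 and 0 by limma. The averaged counts of 1 of 11, 1 of 8 and 0 of 6 do not exceed the 15.5% of all tested genes.

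The EIF2AK3 call in MM1R was lost in 14 of 18 fits that each left out 1 library, with FDR up to 0.232. In MM1S EIF2AK3 was lost without any untreated library or without MM1S RSL3 1, where it was 0.91 (FDR 0.145). AMER1 in MM1S was lost without MM1S untreated 1 or 3 or MM1S RSL3 1 (FDR 0.0817 to 0.124), and in MM1R it passed without MM1S RSL3 1 (FDR 0.0114). With passage as a block AMER1 (-0.76, FDR 0.0394), GSK3A (-0.35, FDR 0.0124), TBK1 (0.29, FDR 0.0370) and PRKCD (-0.49, FDR 0.0304) passed in MM1R, and SMARCA4 (-0.34, FDR 0.0258) in MM1S. PRKCD in MM1R also passed without MM1R Fer-1 + RSL3 1 or 2, MM1S Fer-1 + RSL3 1 or MM1S RSL3 1 (FDR 0.0315 to 0.0496).

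Genes whose log2 CPM over the 18 libraries was most like that of a member were ranked by Pearson's r, as a description over libraries that share treatments. NFE2L2 was most like PMAIP1 (0.967), BACH1 (0.950) and CEBPB (0.949). BACH1 was most like ATF3 (0.971), EPC1 (0.968) and DNAJB4 (0.967). OSGIN1 was most like HMOX1 (0.973), HSPA6 (0.971) and a copy row of HSPA1B (0.968). MAFF was most like RAB11FIP1 (0.958), TRIB1 (0.953) and JUND (0.951), and NQO1 was most like MICAL2 (0.964), PSMD12 (0.935) and TPD52L2 (0.933). BACH2 was most like BRAF (0.946), ESR1 (0.940) and BCL2 (0.937). SQSTM1, at its low counts, was most like PLPP3 (0.924), NABP1 (0.918) and ZSWIM6 (0.908). It is listed through its averaged call, which the filter partly built in.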

How the data were processed

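The authors sequenced the libraries on a BGISEQ-500 as 50 bp read pairs, checked them with FastQC 0.11.5, aligned them to hg19 with STAR 2.7.3a and tested them with DESeq2. The counting tool, annotation and strand setting are not given in the sources used here. The authors deposited raw counts per gene and a table of normalized signal, counts divided by size factors (0.834 to 1.08). Raw counts were used, and the normalized table served as an alternative.

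Genes were kept by edgeR 4.0.16 filterByExpr (minimum count 10), leaving 14281 with 99.9% of all counts. A quasi-likelihood fit with TMM scaling estimated 6 group means from 18 libraries (12 residual degrees of freedom, 8 with passage as a block), and FDR was taken over all tested genes. Averaged contrasts weight the lines equally. DESeq2 1.42.0 and limma 3.58.1 were alternatives. CPM use TMM-scaled library sizes, and log2 CPM a prior count of 2. Passage numbers in the labels pair the libraries. Same-passage deviations from group means correlated at 0.0338 to 0.516 in MM1R (median 0.250) and 0.216 to 0.681 in MM1S (median 0.416). Replicates differed by more than sampling noise (chi-square per degree of freedom 7.66 to 159). The scripts were tested on simulated data.

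The 10 genes, the lists and the tests were chosen with earlier results of these data known. Text names the 10 genes, from each list the genes called with RSL3 in a line or on average (at most 8, by the FDR of the average), and, for members called in both lines or on average, the 3 genes with the highest correlation. Beyond this rule, FTL, PIR, FTH1 and ME1 were named after their values were seen, and a gene that it names is not reported here. Positions are from an hg19 annotation joined by symbol.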

Additional observations from a re-analysis of the deposited data

How the results depend on the processing

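Settings were changed 1 at a time. Counts of members here include SQSTM1, for which a difference from untreated is partly built in, and can exceed the counts without it given above. The share of all tested genes called moved between settings too, and is given above for several of them. For the others, such as DESeq2 and no filter on low counts, it is not given, and their counts are not read as results about the members. Neither these counts nor those of targets below describe the genes apart from that share. For single genes, 786 of 873 values under other settings kept their direction and side of the threshold, and 1814 of 1980 with 1 library left out. The passage block changed no call other than those given above and that of SQSTM1, and gives no value for untreated MM1R against MM1S, because passages are nested in a line. With RSL3 against untreated, the members called in MM1R (3) became 6 with the block, 5 with DESeq2 and 7 with no filter on low counts, and 2 to 7 with 1 library left out (7 without MM1S RSL3 replicate 1). In MM1S (5) they became 8 with no filter, 0 with a fit of only the groups compared, 3 with a log2 fold change over 1 required, and 1 to 6 with 1 library left out (1 without MM1S untreated replicate 1, 3 without MM1S untreated 2 or 3 or MM1S RSL3 1). For Fer-1 + RSL3 against RSL3, no filter gave 1 in MM1R, 1 in MM1S and 1 on average, and leaving out 1 library 0 to 1 on average. Against untreated in MM1S (4) there were 7 with the block, 7 with only the groups compared, 2 with a log2 fold change over 1, and 1 to 5 with 1 library left out. Between untreated lines no filter gave 1, and leaving out 1 library 0 to 1. These causes were not tested.

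Counts of called NRF2 targets, added after seeing the data, became in MM1S 14 with the block and 2 with only the groups compared, 6 on average with a log2 fold change over 1, and 5 to 8 in MM1R with 1 library left out. For Fer-1 + RSL3 against RSL3, no filter gave 2 in MM1R and 2 on average, and against untreated in MM1R the block gave 13. Some log2 differences of Fer-1 + RSL3 from RSL3 changed sign between settings. In that comparison KEAP1 in MM1R (0.000239) was -0.00995 with DESeq2 and with its size factors, -0.0143 with no filter, -0.00111 with only the groups compared and -0.0105 with limma. OSGIN1 in MM1S (-0.03), also for Fer-1 + RSL3 against RSL3, was 0.11 with the block and 0.14 with limma. With 1 library left out, MAFG after RSL3 in MM1R ranged from -0.11 to 0.21. In the Fer-1 comparison in MM1R, NFE2L2 ranged from -0.0936 to 0.0782, KEAP1 from -0.0912 to 0.0871, BACH1 from -0.36 to 0.0745 and OSGIN1 from -0.0414 to 0.49. In MM1S, NFE2L2 ranged from -0.0922 to 0.12, KEAP1 from -0.0808 to 0.16, BACH1 from -0.47 to 0.18, BACH2 from -0.33 to 0.30, OSGIN1 from -0.36 to 0.66 and SQSTM1 from -1.89 to 0.79. Depth limits SQSTM1 (1 to 30 counts) and untreated OSGIN1 (9 to 26 counts).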
